A study of Mus musculus with 12 samples.

Results

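Kcnj13 belongs to 9 genes that were higher in melanomas of obese than of nonobese mice under an isotype control antibody, and the question addressed here is whether each was also higher in the tumors that received anti–PD-1. The 9 members were Kcnj13, Cpne4, Tmod1, Naalad2, Gpr37, Nipal3, Cdh19, Pik3ip1 and Phyhipl, of 23420 genes in the table of counts. They were chosen by measured values, namely the rank of each gene, by P value, among the genes higher in the 3 obese than in the 3 nonobese isotype tumors. The isotype values of the members are therefore given as a description without a test, and the tests come from the anti–PD-1 tumors, which the stated rule does not use. The list was nevertheless drawn up with earlier results of these data known and skips some ranks, so that the choice cannot be shown to be independent of the anti–PD-1 values. All 9 passed the filter on low counts, which left 13095 genes to test.

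RNA was sequenced from 12 tumors of B16-F10, a pigmented melanoma line of C57BL/6 origin, grown under the skin of male C57BL/6J mice and collected on day 16. Obese mice had received a Western diet with 0.2% cholesterol for 15 weeks from 4 to 5 weeks of age, and nonobese mice a matching control diet. Both diets were combined with an antibody at 10 mg/kg, 3 times a week, which was either anti–PD-1 (clone 29F.1A12) or its isotype control (clone 2A3), giving 4 groups of 3 tumors. The host was immunocompetent, the cells of all groups came from a single established line, and obesity was produced by diet, so that diet and body weight cannot be told apart. The tumors of 1 group came from different mice, and the P values measure the spread between these mice.

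Kcnj13 encodes an inwardly rectifying potassium channel that is best known in the retinal pigment epithelium and in the pigment pattern of fish. Gpr37 is a G protein–coupled receptor of glia and neurons, and Cdh19 is a type II cadherin of the neural crest and Schwann cell lineage, the lineage that also gives rise to melanocytes. Pik3ip1 is a membrane protein that restrains phosphoinositide 3-kinase (PI3K), Tmod1 caps the slow-growing ends of actin filaments, and Cpne4 is a copine, a protein that binds membranes in response to calcium. Naalad2 is a peptidase of the glutamate carboxypeptidase family, Nipal3 is related to the NIPA magnesium transporters, and Phyhipl resembles a protein that interacts with phytanoyl-CoA hydroxylase.

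Promoter sequences are shown for Kcnj13, the member with the largest difference under anti–PD-1, for Gpr37, the member that varied most like it, and for the other members that hold the same pigment-cell motif. The windows run from 250 bases before to 50 bases after an annotated start in RefSeq (GRCm38.p6), and 12 such windows were matched to 8 of the 9 members. Cdh19 was not matched. The motif is CATGTG, read on the other strand as CACATG, the core of the M-box that factors of the MITF family bind, and capitals mark it and, in Naalad2, also CATTGT, the reverse complement of the SOX core ACAATG. The Kcnj13 window is on the minus strand (chr1:87394680-87394979), the Gpr37 window on the minus strand (chr6:25689931-25690230), the Naalad2 window on the minus strand (chr9:18397489-18397788) and the Cpne4 window on the plus strand (chr9:104587808-104588107).
Kcnj13: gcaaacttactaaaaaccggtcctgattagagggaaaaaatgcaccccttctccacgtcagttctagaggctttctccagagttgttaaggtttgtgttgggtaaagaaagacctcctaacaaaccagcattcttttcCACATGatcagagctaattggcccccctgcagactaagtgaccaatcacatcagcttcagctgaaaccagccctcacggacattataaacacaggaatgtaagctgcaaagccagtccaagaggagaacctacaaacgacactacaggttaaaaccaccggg
Gpr37: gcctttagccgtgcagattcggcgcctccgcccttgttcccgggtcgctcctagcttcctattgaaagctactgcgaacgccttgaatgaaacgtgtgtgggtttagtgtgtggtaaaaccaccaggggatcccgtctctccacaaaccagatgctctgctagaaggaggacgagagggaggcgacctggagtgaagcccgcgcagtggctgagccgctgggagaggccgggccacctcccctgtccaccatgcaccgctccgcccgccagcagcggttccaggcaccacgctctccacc
Naalad2: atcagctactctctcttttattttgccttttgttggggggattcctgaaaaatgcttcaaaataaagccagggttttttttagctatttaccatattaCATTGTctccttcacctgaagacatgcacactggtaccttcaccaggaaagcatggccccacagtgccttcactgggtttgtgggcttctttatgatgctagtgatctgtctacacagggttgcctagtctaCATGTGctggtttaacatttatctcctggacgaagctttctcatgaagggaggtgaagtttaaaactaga
Cpne4: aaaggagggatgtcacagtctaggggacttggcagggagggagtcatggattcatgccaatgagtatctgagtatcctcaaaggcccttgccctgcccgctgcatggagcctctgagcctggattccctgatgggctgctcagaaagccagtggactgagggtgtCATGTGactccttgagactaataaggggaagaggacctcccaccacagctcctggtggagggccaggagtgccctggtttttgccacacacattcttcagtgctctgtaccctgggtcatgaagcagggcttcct

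The M-box core lay 112 bases before the start of Kcnj13, 20 bases before that of Naalad2 and 85 bases before that of Cpne4. It was found in 3 of the 12 windows, against 14.2% of all 32851 promoters of the same length, and the Gpr37 window held none of the motifs searched. The E-box CACGTG, the palindromic relative of the M-box, occurred in 1 other Cpne4 window (7.15% of all promoters). The SOX core ACAAAG occurred in Tmod1 (18.7%), ACAATG in Naalad2 (12.6%) and the nuclear receptor half-site AGGTCA in 1 Phyhipl window (16.3%). The forkhead core GTAAACA (3.65%), the ETS core CCGGAAG (8.86%) and the AP-1 site TGACTCA (5.2%) were in none of the 12 windows. All motifs were searched on both strands and do not overlap here, and a match is a description of the letters only.

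Total counts per tumor ran from 14022929 to 33871843. They were 14022929 to 23349051 in the 6 obese tumors and 17580835 to 33871843 in the 6 nonobese tumors. Every member had at least 81 counts in every tumor, and counts randomly thinned to the smallest library kept all 9 members higher in obese anti–PD-1 tumors. The labelled cell line matched its markers, since 10 pigment-cell genes (such as Tyr, Dct and Pmel) summed to between 34640 and 41500 CPM (counts per 1000000 of the TMM-scaled library) in every tumor. Bulk RNA cannot tell apart fewer cells of a type and less RNA per cell. All levels below are CPM unless stated otherwise, given for replicates 1, 2 and 3.

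Of the 9 members, all were higher in obese than in nonobese anti–PD-1 tumors and 7 passed an unadjusted P below 0.05 by edgeR's quasi-likelihood test (Kcnj13, Tmod1, Nipal3, Gpr37, Phyhipl, Naalad2 and Pik3ip1). Across all 13095 genes, 5.42% were higher at that threshold. Kcnj13 and Phyhipl also passed the fold change of 2 used by the study, which 3.57% of all genes did. After Benjamini-Hochberg adjustment over all genes, no member and no other gene was below an FDR of 0.05 in the edgeR fit of the 6 tumors without a block (lowest FDR 0.0684 of any gene, 710 genes higher and 438 lower at an unadjusted P below 0.05). Other fits did give calls at that threshold: edgeR with the replicate number as a block gave 176 genes, of which 3 were members, edgeR on all 12 tumors in a single model gave 50 genes and 2 members, and DESeq2 on the same 6 tumors gave 226 genes and 5 members. Under the replicate block, 5 of the 9 members passed an unadjusted P below 0.05 by edgeR. Naalad2 (0.0502) and Pik3ip1 (0.0595) no longer did. The median log2 fold change of the members was 0.59, beside -0.01 over all genes tested, and 46.9% of all genes were higher in obese tumors.

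**Figure D1:**
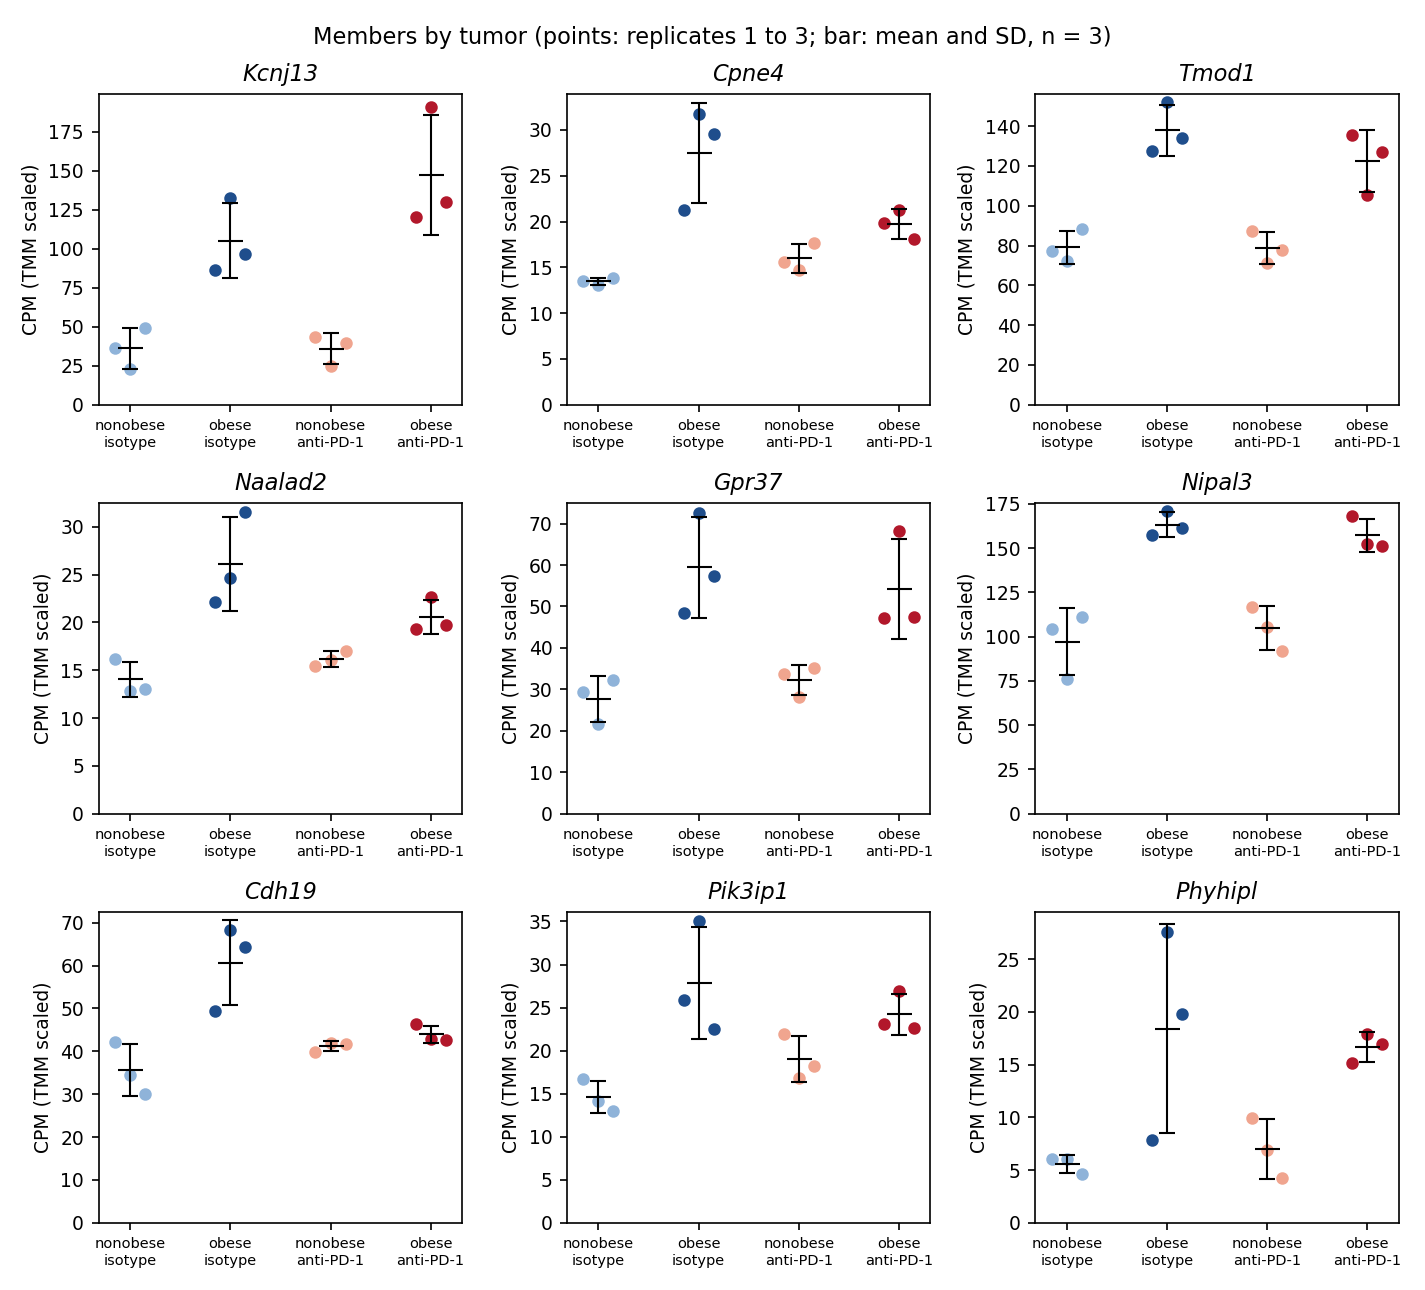
TMM-scaled CPM of the 9 members in each of the 12 tumors (points, replicates 1 to 3 from left to right), with the mean and SD of each group of 3; each axis starts at 0. In every panel the 3 obese points lie above the 3 nonobese points of the same antibody, by a wide margin for Kcnj13 and by a narrow one for Cdh19 under anti–PD-1.

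Kcnj13 showed the largest difference of the members and ranked 3 by P value among all genes higher in obese anti–PD-1 tumors. Its levels were 43.6, 24.7 and 39.3 in nonobese and 120.3, 191 and 130.3 in obese anti–PD-1 tumors. The lowest obese tumor was thus well above the highest nonobese tumor. The log2 fold change was 2.04 (standard error 0.25, 95% interval 1.48 to 2.60), a 4.12-fold difference, with an unadjusted P of 2.24e-05 and an FDR of 0.086 by edgeR. The FDR was 2.8e-14 by DESeq2, and 0.0126 by edgeR with the replicate number as a block. In the isotype tumors that chose the gene, levels were 36.2, 22.9 and 49.5 in nonobese and 86.5, 133 and 96.7 in obese mice. The order of the group means was nonobese anti–PD-1 (35.9 ± 9.89, SD, n = 3), nonobese isotype (36.2 ± 13.3), obese isotype (105 ± 24.3) and, at the top, the obese mice given anti–PD-1 (147 ± 38.4). The values of the nonobese groups overlapped between antibodies, as did those of the obese groups.

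Kcnj13 lies on the minus strand of chromosome 1 (chr1:87386363-87394729, mm10) and is protein coding. Of its 1270 annotated exon bases, 623 (49.1%) overlap exons of Gigyf2, a translational regulator on the opposite strand. The libraries kept strand, but whether HTSeq counted by strand is not given in the sources used here. Gigyf2 itself had a log2 fold change of -0.10 (unadjusted P = 0.547, edgeR), without the difference seen in Kcnj13. As CPM per kilobase of exon (RPKM), Kcnj13 had the highest mean level of the 9 members in every group, from 28.2 in nonobese to 116 in obese anti–PD-1 tumors. The RefSeq model of the gene is 1786 bases longer, and if all of these are exon the same means become 11.7 and 48.2. That puts Kcnj13 below Tmod1 (19.96 RPKM) in nonobese anti–PD-1 tumors. On that length Kcnj13 was also below Tmod1 in nonobese isotype tumors and just below it in obese isotype tumors (34.5 beside 34.9). Kcnj13 was then the highest member in obese anti–PD-1 tumors only. The Nipal3 model also reaches further in RefSeq (to 135442805, beside 135445420 here). Its level was not recomputed on that length, so Kcnj13 and Nipal3 are not ranked on RefSeq lengths.

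Gpr37, the glial receptor, rose in the same tumors. Levels were 33.6, 28.1 and 35.1 in nonobese and 47.2, 68.2 and 47.4 in obese anti–PD-1 tumors. Replicate 2 was the highest obese tumor, as for Kcnj13, and replicate 2 was the lowest nonobese tumor for both genes. The log2 fold change was 0.75 (standard error 0.17, 95% interval 0.37 to 1.14), with an unadjusted P of 0.00179 and an FDR of 0.21 by edgeR. Isotype levels were 29.5, 21.6 and 32.3 in nonobese and 48.5, 72.5 and 57.3 in obese mice. Gpr37 lies on the minus strand of chromosome 6 (chr6:25665878-25690729), and no other annotated gene overlaps it.

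Phyhipl had the lowest level of the members and the second largest fold change. Levels were 9.91, 6.93 and 4.24 in nonobese and 15.2, 17.9 and 16.9 in obese anti–PD-1 tumors. The obese tumors lay close together, while the nonobese ones spread more than 2-fold. The log2 fold change was 1.25 (standard error 0.28, 95% interval 0.61 to 1.89), with an unadjusted P of 0.00178 and an FDR of 0.21 by edgeR. Under isotype the spread was in the obese group, at 7.87, 27.6 and 19.8, against 6.07, 6.08 and 4.6 in nonobese tumors, and replicate 1 of the obese group stood near the nonobese level. Phyhipl is on the minus strand of chromosome 10 (chr10:70557682-70655965), and 10.8% of its exon bases overlap Fam13c, a gene with at most 28 counts in any tumor.

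Tmod1, the actin-capping protein, and Nipal3, the NIPA relative, had smaller folds and little spread. Tmod1 levels were 87.3, 71.2 and 77.8 in nonobese and 135, 105 and 127 in obese anti–PD-1 tumors. Its log2 fold change was 0.64 (standard error 0.13, 95% interval 0.35 to 0.93), with an unadjusted P of 0.000875 and an FDR of 0.197 by edgeR. Its isotype levels were 77.2, 72.0 and 88.0 in nonobese and 127, 152 and 134 in obese mice. The nonobese means of Tmod1 were nearly equal under both antibodies (79.1 and 78.8).

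Nipal3 levels were 117, 105 and 92.0 in nonobese and 168, 152 and 151 in obese anti–PD-1 tumors. The log2 fold change was 0.59 (standard error 0.11, 95% interval 0.33 to 0.85), with an unadjusted P of 0.000743 and an FDR of 0.193 by edgeR. Isotype levels were 104, 76.0 and 111 in nonobese and 157, 171 and 161 in obese mice. With the replicate number as a block, the FDR by edgeR was 0.0292 for Tmod1 and 0.0412 for Nipal3. Both genes are on chromosome 4, Tmod1 on the plus strand (chr4:46038935-46116032) and Nipal3 on the minus strand (chr4:135445420-135495038). Exons of Tstd2 on the opposite strand cover 32.6% of those of Tmod1, and Tstd2 had a log2 fold change of -0.22 (unadjusted P = 0.0801, edgeR). Stpg1 covers 3% of the Nipal3 exons.

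**Figure D2:**
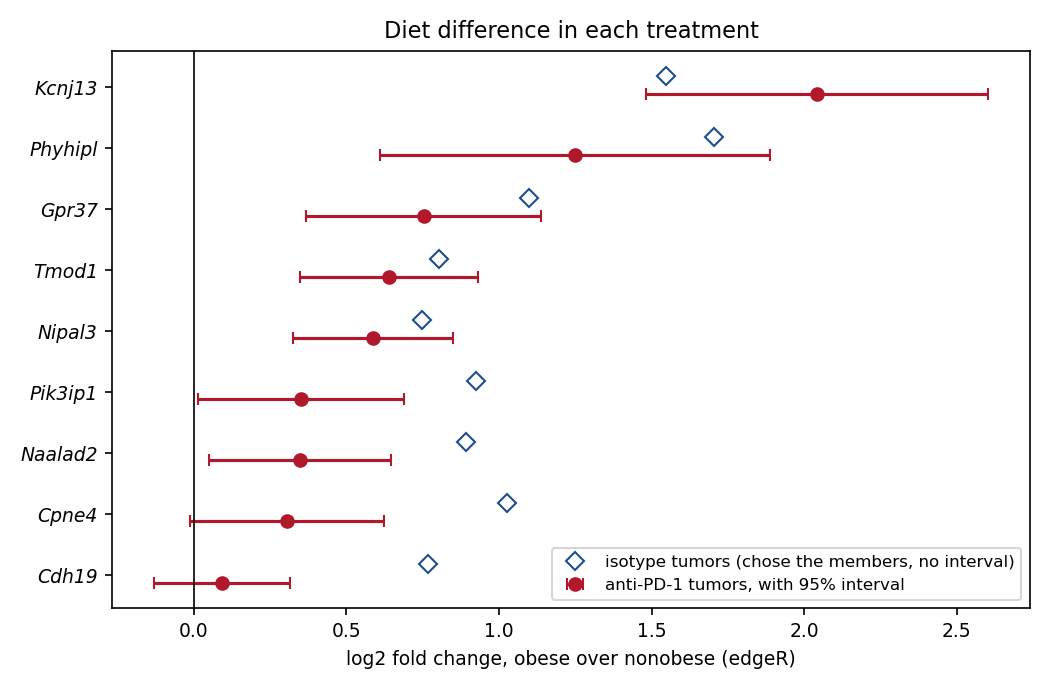
Log2 fold change of obese over nonobese tumors for each member (horizontal axis), under anti–PD-1 as filled circles with 95% intervals and under isotype as open diamonds, which chose the members and carry no interval. The anti–PD-1 interval excludes 0 for 7 members and covers 0 for Cpne4 and Cdh19; the circle lies to the right of the diamond for Kcnj13 alone.

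Naalad2, Pik3ip1 and Cpne4 were 1.27-, 1.28- and 1.24-fold higher in obese tumors under anti–PD-1, beside 1.86-, 1.9- and 2.04-fold under isotype. Naalad2 levels were 15.4, 16.1 and 16.99 in nonobese and 19.3, 22.6 and 19.7 in obese anti–PD-1 tumors (log2 fold change 0.35, standard error 0.13, unadjusted P = 0.0277, FDR 0.472, edgeR). Pik3ip1, the PI3K inhibitor, was at 22.0, 16.8 and 18.2 in nonobese and 23.1, 27.0 and 22.6 in obese anti–PD-1 tumors (log2 fold change 0.35, standard error 0.15, unadjusted P = 0.0424, FDR 0.548, edgeR). The closest pair of tumors in Pik3ip1 thus differed by under 1 CPM. The replicate block moved the unadjusted P of both genes past 0.05, to 0.0502 for Naalad2 and 0.0595 for Pik3ip1 by edgeR.

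Cpne4 ranked first of all genes higher in obese isotype tumors, and its anti–PD-1 difference did not pass the threshold. Levels were 13.5, 13.1 and 13.9 in nonobese and 21.3, 31.7 and 29.5 in obese isotype tumors. Under anti–PD-1 they were 15.6, 14.7 and 17.7 in nonobese and 19.8, 21.3 and 18.1 in obese mice. The log2 fold change there was 0.31 (95% interval -0.01 to 0.62), with an unadjusted P of 0.0572 and an FDR of 0.59 by edgeR. Without replicate 3 of the nonobese anti–PD-1 group the unadjusted P by edgeR was 0.0167. Without any other single anti–PD-1 tumor it lay between 0.0641 and 0.189. Isotype levels of Naalad2 were 16.2, 12.9 and 13.1 in nonobese and 22.1, 24.6 and 31.6 in obese mice. Those of Pik3ip1 were 16.7, 14.2 and 13.01 in nonobese and 25.9, 35.0 and 22.5 in obese mice. Naalad2 (minus strand, chr9:18321951-18402995) and Cpne4 (plus strand, chr9:104547286-105034544) are on chromosome 9, and Pik3ip1 is on the plus strand of chromosome 11 (chr11:3330401-3342971).

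Cdh19, the cadherin of the Schwann cell lineage, had the smallest difference under anti–PD-1. Levels were 39.9, 42.0 and 41.7 in nonobese and 46.3, 42.9 and 42.6 in obese anti–PD-1 tumors, which do not overlap but nearly touch. The log2 fold change was 0.09 (95% interval -0.13 to 0.32), with an unadjusted P of 0.371 and an FDR of 0.853 by edgeR. The isotype value, which chose the gene, was 0.77 and came from 42.1, 34.4 and 30.1 in nonobese and 49.4, 68.3 and 64.3 in obese tumors. Cdh19 is on the minus strand of chromosome 1 (chr1:110888326-110977584).

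All 9 members had every obese tumor above every nonobese tumor under anti–PD-1, a pattern found in 6.54% of all genes tested. The same pattern under isotype, where 10.4% of all genes showed it, also held for all 9 but belongs to the values that chose them. For a single gene, an exact permutation test of 3 tumors against 3 cannot give a two-sided P below 0.1. The difference between the diet effects under the 2 antibodies was not tested, because the isotype values had chosen the members. Side by side, the log2 fold change was larger under anti–PD-1 for Kcnj13 alone (2.04 beside 1.55) and smaller for the other 8. The largest gaps were in Cpne4 (0.31 beside 1.03) and Cdh19 (0.09 beside 0.77).

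The antibody comparison within each diet reuses the tumors that chose the members and is given as values. On the log2 scale, obese anti–PD-1 over obese isotype tumors was 0.48 for Kcnj13 and between -0.48 (Cpne4) and -0.05 (Nipal3) for the other 8. In nonobese mice the same ratio was -0.01 for Kcnj13 and Tmod1 and between 0.11 (Nipal3) and 0.38 (Pik3ip1) for the other 7.

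The members were not a complete run of the isotype ranking, since they held ranks 1, 3 to 9 and 27. Rank 2 was Mgll, the lipase of monoacylglycerols, and Adamts1, a secreted metalloprotease, held rank 10. Phyhipl at rank 27 lay between Ano3 (isotype log2 fold change 0.59) and Jdp2 (0.63), and its own value was 1.70. The 18 other genes down to rank 27 are set beside the members without a test. Of these, 14 were higher under anti–PD-1 and 5 passed an unadjusted P below 0.05 (27.8%, against 5.42% of all genes). Their median log2 fold change under anti–PD-1 was 0.16 beside 0.67 under isotype, and that of the members was 0.59 beside 0.92.

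**Figure D3:**
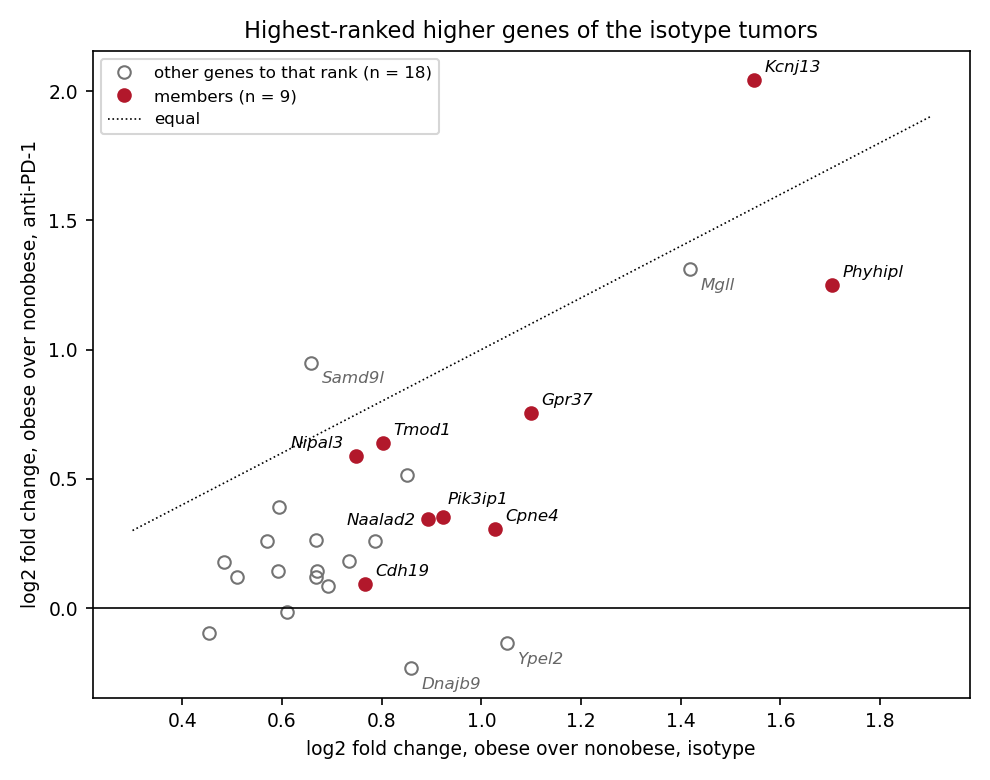
Log2 fold change of obese over nonobese tumors under isotype (horizontal) and under anti–PD-1 (vertical) for the 27 genes ranked highest among higher genes of the isotype tumors, with members filled, other genes open and the dotted line marking equal values. All 9 members lie above 0 on the vertical axis, Kcnj13 and the open point of Samd9l lie above the dotted line, and 4 open points lie below 0.

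The members varied together to different degrees once the group means were taken out. Over the 36 pairs of members, the Pearson correlation of deviations from the group means (log2 CPM, 12 tumors) had a median of 0.33, and 33 pairs were positive. For each member, the median correlation with all genes tested was between -0.02 and 0.02. Kcnj13 and Gpr37 formed the closest pair (0.93), followed by Gpr37 and Cpne4 (0.73). The lowest value was that of Tmod1 and Naalad2 (-0.28). Points of a tumor share its library and depth, so these values are descriptions. Part of the variation followed single tumors: replicate 2 of the obese isotype group, the smallest library, had the highest level of its group in 8 of the 9 members, and replicate 1 the lowest in 8. In the obese anti–PD-1 group, replicate 2 was the highest in 6 members, and Tmod1 was the member it had lowest.

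**Figure D4:**
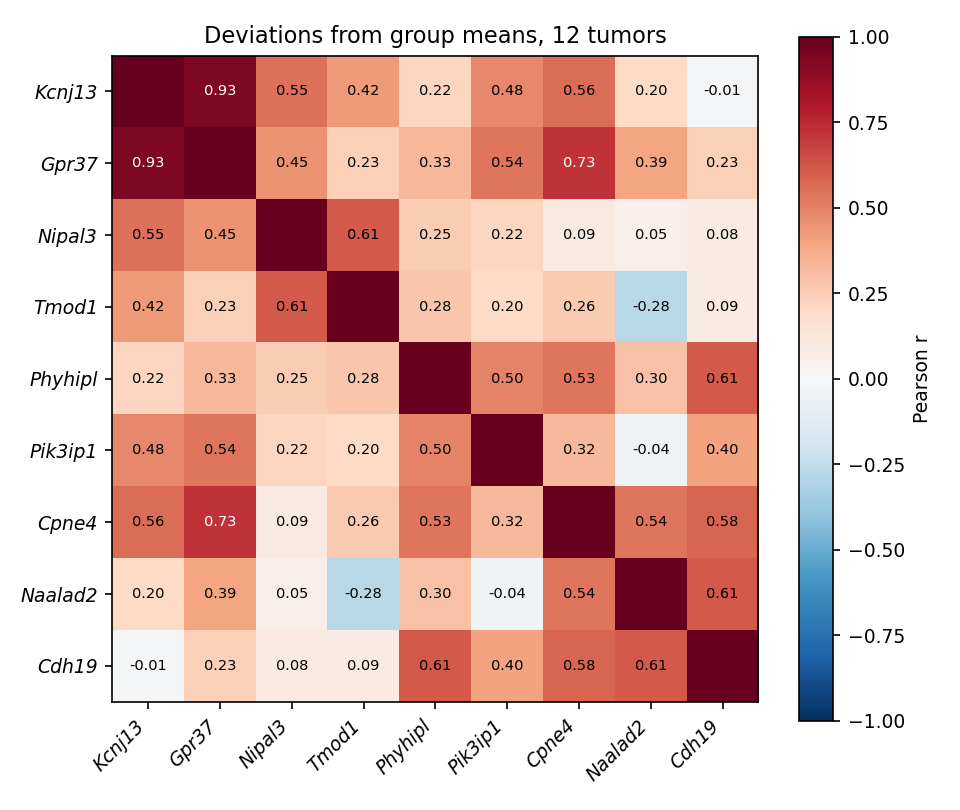
Pearson correlation between members of their log2 CPM deviations from the group means over 12 tumors, with the value printed in each cell and the color scale running from -1 to 1. Kcnj13 and Gpr37 reach 0.93, and Tmod1 and Naalad2 are the lowest pair at -0.28.

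Mgll was the gene outside the members whose pattern over the 12 tumors was most like that of Kcnj13 (Pearson r = 0.969 and Spearman rho = 0.944 on log2 CPM, and r = 0.901 after removal of the group means). Its mean levels were 156 and 417 in nonobese and obese isotype tumors and 163 and 405 in the anti–PD-1 tumors. The next genes by likeness to Kcnj13 were Vwa5a (0.94), Ldhd, a lactate dehydrogenase for the D form (0.935), Samd9l, an interferon-induced gene (0.91), and Gpr143, the ocular albinism receptor of pigment cells (0.907). Gpr143 means were 51.5 and 60.8 under isotype and 53.1 and 64.1 under anti–PD-1, a narrow range beside that of Kcnj13. Outside the members, Mgll was also the closest gene to Gpr37 (0.957), and Ldhd to both Tmod1 (0.937) and Nipal3 (0.925). The closest genes to the rest were Hnrnpc for Cpne4 (0.978), Fam84b for Naalad2 (0.945), Rfwd2 for Cdh19 (0.957), Laptm4a for Pik3ip1 (0.928) and Scfd1 for Phyhipl (0.935). These likenesses leave out the members, were picked as the highest of all other genes and include the diet difference that chose the members.

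Of 24 relatives of the members that could be tested, 1 (4.17%) was higher at an unadjusted P below 0.05 by edgeR, beside 5.42% of all genes. Of 14 other inward rectifier channels, 4 had enough counts to test, none passed an unadjusted P below 0.05 by edgeR, and 5 were at 0 counts in all tumors. The most abundant, Kcnj8, averaged 4.83 over the 12 tumors. None of the 5 tropomodulins and leiomodins, the 3 NIPA transporters, the 4 type II cadherins, the 2 receptors of the Gpr37 and endothelin group or the 2 phytanoyl-CoA genes that could be tested passed that threshold. Their most abundant genes were Tmod3 (log2 fold change 0.02), Nipa2 (0.05), Cdh5 (0.28), Ednrb (0.28) and Phyh (0.18). Of the relatives of Naalad2, 2 were in the table and neither had enough counts, Naaladl1 being the higher at 0.27 CPM. Among 4 copines, Cpne8 rose (log2 fold change 1.23, unadjusted P = 0.0261, edgeR) from a mean of 0.68 CPM in nonobese to 1.59 in obese anti–PD-1 tumors, and the abundant Cpne1 had a log2 fold change of 0.07.

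Of 49 genes tested in pathways around the members, 4 (8.16%) were higher at an unadjusted P below 0.05 by edgeR, beside 5.42% of all genes. Of 11 PI3K subunits, which Pik3ip1 acts on, Pik3cg, the subunit of leukocytes, rose (log2 fold change 1.24, unadjusted P = 0.0222, edgeR), and the most abundant, Pik3r3, was at -0.12. Of 13 targets of FOXO factors, which PI3K signaling restrains, Bcl6 (0.88, unadjusted P = 0.00676) and the ubiquitin ligase Fbxo32 (0.60, unadjusted P = 0.00394) rose by edgeR, and the most abundant, Txnip, was at 0.32. None of 10 neural crest regulators passed the threshold, Sox10 being the most abundant (841 CPM, log2 fold change -0.20). Of 15 ERK feedback genes, Egr1 rose (0.52, unadjusted P = 0.0461, edgeR) and Phlda1 was at -0.06. In the edgeR fit of the 6 tumors without a block, which gave no gene of any kind an FDR below 0.05, none of these lists held a gene that fell at an unadjusted P below 0.05, and their genes were not looked up in the other fits. The medians of the PI3K, FOXO, neural crest and ERK lists were 0.02, -0.09, 0.12 and 0.04, beside -0.01 over all genes.

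Markers of other cell types moved with diet in the anti–PD-1 tumors. At an unadjusted P below 0.05 by edgeR, 9 of 9 adipocyte, 6 of 7 T cell, 9 of 10 myeloid and 7 of 10 fibroblast markers tested were higher in obese anti–PD-1 tumors, against 5.42% of all genes. The summed adipocyte markers ran from 14.7 to 25.2 CPM in nonobese and from 37.7 to 95.4 in obese anti–PD-1 tumors, with Adipoq at means of 0.33 and 4.24. The T cell markers summed to 5.24 to 6.62 and 8.25 to 21.3. In the isotype tumors, where the members were higher in obese mice as well, the summed adipocyte markers were 19.6 to 47.1 in nonobese and 15.9 to 24.6 in obese tumors, the fibroblast markers 795 to 2993 and 317 to 1269, and the T cell markers 5.62 to 8.38 and 5.53 to 7.40. The myeloid markers summed to 216 to 469 and 171 to 297 under isotype, and to 139 to 209 and 243 to 483 under anti–PD-1. The fibroblast sums overlapped between diets under anti–PD-1, at 464 to 728 in nonobese and 559 to 2020 in obese tumors. The part of these lists in the difference of the members was not tested.

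Pigment-cell and Schwann cell markers bear on Kcnj13, Gpr37 and Cdh19 by lineage. Of 10 pigment-cell markers, Oca2, a melanosome transporter, rose under anti–PD-1 (log2 fold change 0.44, unadjusted P = 0.0078, edgeR), and the other 9 did not pass. Their sums overlapped between diets under both antibodies, at 34640 to 39260 in nonobese and 37000 to 41500 in obese anti–PD-1 tumors. Of 8 Schwann cell markers reported here, 4 could be tested, and the myelin gene Mbp rose (log2 fold change 0.37, unadjusted P = 0.0222, edgeR), from a mean of 128 CPM in nonobese to 166 in obese anti–PD-1 tumors, beside 116 and 179 under isotype. S100b, a glial calcium-binding protein that pigment cells also make, had a log2 fold change of 0.20 (unadjusted P = 0.269, edgeR). The 8 markers summed to 229.5 to 269.8 CPM in nonobese and 272 to 350.3 in obese anti–PD-1 tumors, and to 215 to 243 and 264 to 423 under isotype, so that the sum was higher in every obese tumor than in the nonobese tumors of the same antibody. Nearly all of it came from Mbp and S100b, and 5 of the other 6 markers had a lower mean in obese than in nonobese isotype tumors, among them Mag (0.14 CPM beside 0.25) and Ncmap (0.03 beside 0.17). Under anti–PD-1 the obese mean was higher than the nonobese mean for Pmp22 (11.61 CPM beside 9.93), Prx (1.565 beside 0.97) and Mag (0.27 beside 0.19). It was lower for Gldn (0.02 beside 0.07), Drp2 (0.28 beside 0.32) and Ncmap (0.07 beside 0.20). In Ncmap every obese anti–PD-1 tumor was below every nonobese one. Mag had at most 11 counts and Ncmap at most 8 in any tumor. The part of these markers in the difference of the members was not tested. No skeletal muscle (10 tested), erythroid (4) or keratinocyte (2) marker passed the threshold, and 1 of 10 endothelial markers was higher.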

How the data were processed

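The authors sequenced poly(A) RNA in single-end reads (TruSeq Stranded mRNA), aligned it with STAR 2.7.0f to mm10 and counted reads per gene with HTSeq 0.9.1. The values they deposited are raw counts without normalization for 23420 genes, matched to the 12 tumors by library name (0 columns unused). Reads carry no molecular identifiers.

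The members and the gene lists were chosen with earlier results of these data known. Genes were filtered with filterByExpr and scaled by TMM over 12 tumors. The 6 anti–PD-1 tumors were fitted with the quasi-likelihood F-test of edgeR 4.0.16 (legacy glmQLFit, R 4.3.3), with Benjamini-Hochberg adjustment over all 13095 genes. Isotype values come from a model of 4 group means over 12 tumors. DESeq2 1.42.0 and limma 3.58.1 were alternatives. Log2 CPM used a prior count of 2. The code was tested on simulated data.

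Besides the members, the genes named were, per list, those with an unadjusted P below 0.05 (up to 3) and the most abundant, the genes most correlated with each member, the genes around the lowest-ranked member, and overlapping genes. Genes named outside this rule (markers and the other ranked genes) were chosen after their values were seen. Coordinates and exon lengths are from GENCODE M21 (GRCm38, the assembly of mm10). Part of the Schwann cell list is not reported here.

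Replicate numbers are shared between groups in the labels, which do not say what they mark. Deviations of same-numbered anti–PD-1 tumors from their group means correlated at 0.443, 0.111 and 0.351, and those of different numbers at -0.147 on average. For same-numbered isotype tumors the values were -0.127, -0.181 and 0.201. The fit with the number as a block is therefore given where it changes a call of a member. Single genes outside the members were not looked up in that fit.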

Additional observations from a re-analysis of the deposited data

How the results depend on the processing

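Across 19 alternative settings of the anti–PD-1 comparison, all 9 members kept a higher level in obese tumors. An unadjusted P below 0.05 was reached in all 19 by Kcnj13, Tmod1, Gpr37, Nipal3 and Phyhipl, in 13 by Naalad2, in 9 by Pik3ip1, in 2 by Cpne4 and in 0 by Cdh19. The median log2 fold change of the members lay between 0.52 and 0.67 when single tumors were left out, and under isotype between 0.87 and 1.03. Thinning to the smallest library, chosen after seeing the data, gave 6 members with an unadjusted P below 0.05 (Pik3ip1 at 0.0513).

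Counts over all genes moved more. Past both thresholds (2-fold and unadjusted P of 0.05), 467 genes were higher and 48 lower. With all 12 tumors in a single model, 74 were lower, 50 genes had an FDR below 0.05 and 2 of them were members (Kcnj13 and Tmod1). A minimum of 10 counts in every tumor left 285 higher and 21 lower genes. Without a filter (at least 1 count), 93 were lower and 31 had an FDR below 0.05, with 1 member, Kcnj13. DESeq2 gave 226 genes and 5 members. With the replicate number as a block, 74 were lower, 176 genes and 3 members (Kcnj13, Tmod1 and Nipal3) had an FDR below 0.05, and 5 members had an unadjusted P below 0.05, Naalad2 (0.0502) and Pik3ip1 (0.0595) being lost. The block changed no other call of a member.

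When each anti–PD-1 tumor was left out, genes higher with an unadjusted P below 0.05 ranged from 439 to 985, those also past the fold change of 2 from 280 to 684, and lower ones from 32 to 166. Genes with an FDR below 0.05 ranged from 0 to 155 and members from 0 to 1. The high values came without replicate 1 of the obese group (155 genes) and without replicate 1 of the nonobese group (166 lower genes), and the low ones without obese replicate 2 (454 and 304 higher) or 3 (439 and 280). Without nonobese replicate 2, 81 were lower, and without nonobese replicate 3, 21 genes had an FDR below 0.05. Leaving out 1 tumor left 5 to 7 members with an unadjusted P below 0.05. Intervals at this depth cover genes above a few counts only, and 3 tumors per group limit the precision. The cause of these shifts was not tested.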

Other observations

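Of the 18 other genes ranked down to Phyhipl, 4 were lower in obese anti–PD-1 tumors, and they were chosen here after their values were seen. They were Dnajb9, a chaperone of the endoplasmic reticulum (log2 fold change -0.23 beside 0.86 under isotype), Serp1, a translocon-associated protein of the same compartment (-0.10 beside 0.45), Ypel2 (-0.14 beside 1.05) and Rnf13 (-0.02 beside 0.61). None of the 4 passed an unadjusted P below 0.05 by edgeR (0.222, 0.344, 0.544 and 0.893). Samd9l, an interferon-induced gene, was the 1 gene of the 18 with a larger value under anti–PD-1 (0.95, unadjusted P = 0.000106, edgeR) than under isotype (0.66).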
